A study of Mus musculus with 37 samples.

Results

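Pou5f1, Nanog, Sox2, Zfp42, Klf2, Tdgf1, Utf1 and Otx2 are the pluripotency and epiblast genes described here, 8 of the 55401 genes listed in each of the deposited tables. They were chosen by symbol, with no measured value entering the rule. Each was followed through oocytes and early embryos and through the lineages of the embryonic day 6.5 (E6.5) embryo, with and without BAP1 in the oocyte. BAP1 is the catalytic subunit of the Polycomb repressive deubiquitinase, which removes ubiquitin from histone H2A, and the series addressed what its loss does to oocytes and to the embryos made from them.

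The control females carried Bap1flox/flox alone, and the knockout females carried Gdf9-iCre and Bap1flox/flox, so that iCre, driven by the oocyte-specific Gdf9 promoter, recombined the floxed alleles in oocytes. These females gave the fully grown oocytes (FGO) and also the MII eggs (MII). Embryos at the late 1-cell (L1C), early 2-cell (E2C) and late 2-cell (L2C) stages came from eggs of either genotype and B6 sperm, and E6.5 epiblast (EPI), visceral endoderm (VE) and extraembryonic ectoderm (EXE) from such eggs and PWK sperm. Every knockout embryo was therefore a maternal knockout with an intact paternal allele, and all mothers, control ones included, were homozygous for the floxed allele. FGO, MII, L1C and L2C had 2 control and 3 knockout libraries each, E2C 3 and 3, EPI and VE 2 and 2, and EXE 1 and 2. The labels do not say whether libraries of a group came from separate females, so that the p-values measure the spread between these libraries, which may be partly technical.

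Pluripotency is the capacity of the inner cell mass and epiblast to form every tissue of the fetus. It rests on the transcription factors OCT4 (Pou5f1), SOX2 and NANOG and passes through a naive state, marked by Zfp42 and Klf2, to a formative and then primed state in the epiblast after implantation, marked by Otx2. Tdgf1 (Cripto) encodes the cell-surface co-receptor for Nodal, and Utf1 a chromatin-associated factor of pluripotent cells. Oocytes store Pou5f1 mRNA, while the embryo begins to transcribe its own genome strongly at the 2-cell stage.

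The labels were checked on Bap1, which measured 16.3 to 29.9 FPKM (fragments per kilobase of transcript, scaled to the library) in the 11 control libraries of the 5 early stages and 3.76 to 11.7 FPKM in the 15 knockout libraries. The groups did not overlap at any of these stages, and the difference ran from -2.40 ± 0.14 (SE) in MII to -1.04 ± 0.26 (SE) in L2C on the log2(FPKM + 1) scale. At E6.5 Bap1 measured 14.0 to 22.6 FPKM in control and 18.3 to 33.8 FPKM in knockout libraries. Its mean was higher in knockout in each lineage, so that it does not check the genotype labels there. Knockout embryos had an intact paternal allele, whose part in these values was not tested. The lineages carried their markers. The 12 visceral endoderm markers summed to between 8866 and 11169 FPKM in VE and to at most 20.7 FPKM in EPI and EXE, and the 10 extraembryonic ectoderm markers to between 564 and 656 FPKM in EXE and to at most 37.1 FPKM in EPI and VE. Oocyte markers summed to between 3128 and 3705 FPKM in FGO. There 10 markers of follicle cells summed to 8.35 and 6.97 FPKM in control and to between 2.59 and 3.15 FPKM in knockout libraries. The 1 of them tested, Cyp19a1, was lower in knockout FGO (-1.33 ± 0.14 SE). FPKM keep no read number, so that the depth of the libraries is unknown.

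The 8 genes lie on 7 chromosomes in GENCODE M21 (GRCm38, mm10), and each is annotated as protein coding. Pou5f1 (ENSMUSG00000024406.16) spans chr17:35506018-35510772, Nanog (ENSMUSG00000012396.12) chr6:122707489-122714633, Sox2 (ENSMUSG00000074637.7) chr3:34650405-34652461 and Zfp42 (ENSMUSG00000051176.6) chr8:43295063-43306980. Klf2 (ENSMUSG00000055148.7) spans chr8:72319033-72321656, Tdgf1 (ENSMUSG00000032494.12) chr9:110939603-110946158, Utf1 (ENSMUSG00000047751.9) chr7:139943789-139945112 and Otx2 (ENSMUSG00000021848.16) chr14:48657677-48673819. The antisense gene Gm19553 covers 14.1% of the exonic bases of Pou5f1, and Otx2os1 3.65% of those of Otx2. Gm49154, on the same strand as Otx2, covers 3.98% of them. Whether counting used the strand is not given in the sources used here, so that reads of the antisense pairs may not have been told apart, and the strand does not separate Gm49154 from Otx2.

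The promoters of Pou5f1, Sox2, Zfp42 and Klf2 are shown because these are the members that reached 1 FPKM in at least 2 early libraries and differed between the genotypes in L2C. They are the 250 bases before the annotated start in RefSeq (GRCm38.p6), 5′ to 3′ on the strand of the gene. Capitals mark matches on either strand to the octamer core TTTGCAT, bound by OCT4 and other POU factors, to the GC box GGGCGG, bound by SP and KLF factors, and to the nuclear receptor motif AGGTCA.
Pou5f1 (chr17:35505782-35506031, plus strand): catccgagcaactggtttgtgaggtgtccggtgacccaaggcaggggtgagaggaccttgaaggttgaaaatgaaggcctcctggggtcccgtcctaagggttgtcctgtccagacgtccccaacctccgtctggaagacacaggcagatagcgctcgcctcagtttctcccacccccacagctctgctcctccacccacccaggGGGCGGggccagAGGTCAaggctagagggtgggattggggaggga
Sox2 (chr3:34649745-34649994, plus strand): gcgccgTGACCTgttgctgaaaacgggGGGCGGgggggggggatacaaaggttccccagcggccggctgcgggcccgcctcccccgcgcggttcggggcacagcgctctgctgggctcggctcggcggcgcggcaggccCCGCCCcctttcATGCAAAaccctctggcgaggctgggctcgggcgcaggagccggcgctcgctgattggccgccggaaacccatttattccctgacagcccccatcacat
Zfp42 (chr8:43307010-43307259, minus strand): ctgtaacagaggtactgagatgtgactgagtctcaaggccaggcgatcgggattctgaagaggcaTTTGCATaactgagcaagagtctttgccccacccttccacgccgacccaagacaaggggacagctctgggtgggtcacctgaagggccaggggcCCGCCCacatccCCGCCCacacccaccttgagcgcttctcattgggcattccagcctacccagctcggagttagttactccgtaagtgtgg
Klf2 (chr8:72318812-72319061, plus strand): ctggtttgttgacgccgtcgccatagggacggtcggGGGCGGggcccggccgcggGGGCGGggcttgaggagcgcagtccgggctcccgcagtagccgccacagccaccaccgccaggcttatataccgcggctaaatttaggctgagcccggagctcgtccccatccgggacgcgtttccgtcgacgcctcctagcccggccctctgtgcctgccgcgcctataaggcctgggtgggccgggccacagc
An octamer core begins at position -99 of Sox2 and at -185 of Zfp42, counted from the annotated start, and none was found in the windows of Pou5f1 and Klf2. Klf2 holds 2 GC boxes and neither of the other motifs, Zfp42 and Sox2 hold 2 GC boxes each, and Pou5f1 holds 1. Among all 32851 promoters of this length in the table, 4.12% hold the octamer core, 32.7% the GC box and 14% the nuclear receptor motif. In the windows shown, no matches of different motifs overlapped. Such matches describe the letters of these windows and show no binding.

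In oocytes and early embryos Pou5f1 was the 1 abundant member, Zfp42 and Klf2 reached their highest early levels in control L2C, and Sox2 stayed low. Pou5f1 measured 88.2 and 74.6 FPKM in control FGO, 99.9 and 93.1 FPKM in control MII, 126 and 121 FPKM in control L1C, and 132, 151 and 151 FPKM in control E2C. It then measured 58.9 and 71.1 FPKM in control L2C, below every control library of the earlier stages. The control level was not called as different between FGO and MII (0.25 ± 0.08 SE, adjusted p = 0.0924 from limma), rose from MII to L1C by 0.35 ± 0.08 (SE, adjusted p = 0.00339), and fell by 1.15 ± 0.14 (SE, adjusted p = 5.79e-07) from E2C to L2C, all on the log2(FPKM + 1) scale used for every difference here. Over all 15184 genes tested, 5.39%, 25.4%, 47.2% and 51.7% passed the adjusted threshold of 0.05 in the control steps from FGO to MII, MII to L1C, L1C to E2C and E2C to L2C. Of the 4 members tested, 0, 2, 2 and 3 passed in these steps, with 1 of the 4 (Pou5f1) at an unadjusted p under 0.05 in the first. Without control FGO replicate 1 Pou5f1 was called in the first step (0.37, adjusted p = 0.043), and in a fit without stage weights it was not called from MII to L1C (adjusted p = 0.0633).

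Zfp42, the zinc finger gene whose product REX1 marks naive cells, measured 0.275 and 0.462 FPKM in control FGO, 0.27 and 0.46 FPKM in control MII, and 0.108 and 0.467 FPKM in control L1C. In control E2C it measured 2.93, 1.75 and 3.28 FPKM, and in control L2C 14.7 and 11.2 FPKM. It thus rose at both steps of the 2-cell stage, by 1.49 ± 0.19 (SE, adjusted p = 1.65e-06 from limma) from L1C to E2C and by 1.95 ± 0.23 (SE, adjusted p = 4.58e-07) from E2C to L2C. Klf2, a Krüppel-like factor of naive cells, took another course. It measured 0.45 and 0.754 FPKM in control FGO, 0.69 and 0.752 FPKM in control MII and 2.06 and 1.17 FPKM in control L1C. It was at 0.509, 0 and 0.625 FPKM in control E2C, and at 4.77 and 6.14 FPKM in control L2C. Klf2 rose from MII to L1C by 0.58 ± 0.16 (SE, adjusted p = 0.012 from limma), fell by 0.93 ± 0.23 (SE, adjusted p = 0.00195) to E2C, and rose by 2.25 ± 0.28 (SE, adjusted p = 7.17e-07) to L2C. The first of these steps was not called without control L1C replicate 1 (0.34, adjusted p = 0.261) or without control MII replicate 1 (0.56, adjusted p = 0.0615), nor with a pseudocount of 0.1 (adjusted p = 0.0812) or without stage weights (adjusted p = 0.107).

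Sox2, the partner of OCT4 at many of its targets, stood between 0.259 and 0.873 FPKM in the control libraries of FGO, MII and L1C. It measured 1.70, 1.95 and 0.822 FPKM in control E2C and 1.74 and 1.90 FPKM in control L2C. No control step of Sox2 passed, with an adjusted p of 0.0534 from limma from L1C to E2C (0.60 ± 0.25 SE). That step was called without control L1C replicate 1 (0.83) and without control E2C replicate 3 (0.81). Nanog, Tdgf1, Utf1 and Otx2 did not pass the filter of 1 FPKM in 2 libraries and were not tested at these stages. Over the 26 libraries they reached at most 0.121, 0.338, 0.56 and 0.385 FPKM in this order. The order of the control levels in L2C was therefore Pou5f1, Zfp42, Klf2, Sox2 and then the other 4, and the libraries of neighbours among the first 4 did not overlap.

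**Figure D1:**
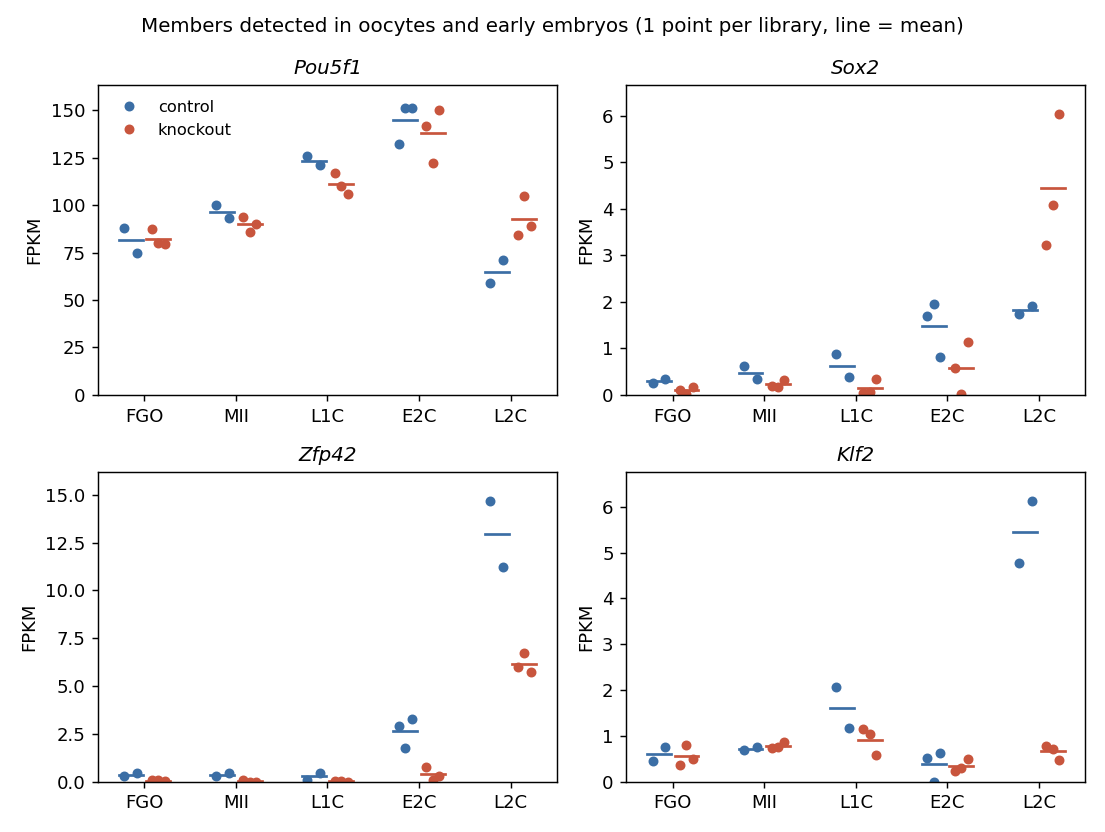
FPKM (linear axis) of Pou5f1, Sox2, Zfp42 and Klf2 in oocytes (FGO), eggs (MII), and late 1-cell (L1C), early 2-cell (E2C) and late 2-cell (L2C) embryos, with 1 point per library and a line at the mean of each genotype. In L2C the knockout points lie below control for Zfp42 and Klf2 and above it for Pou5f1 and Sox2, with no overlap.

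Late 2-cell embryos were the stage at which all 4 tested members differed between the genotypes, in both directions. Klf2 measured 0.783, 0.722 and 0.48 FPKM in knockout L2C against 4.77 and 6.14 FPKM in control, close to the 0 to 0.625 FPKM of the E2C libraries. Zfp42 measured 5.99, 6.75 and 5.71 FPKM in knockout L2C against 14.7 and 11.2 FPKM in control. Both genes marking the naive state were thus lower, Klf2 by -1.95 ± 0.26 (SE, adjusted p = 7.3e-06 from limma) and Zfp42 by -0.96 ± 0.22 (SE, adjusted p = 0.00166). Pou5f1 measured 84.2, 105 and 89.0 FPKM in knockout against 58.9 and 71.1 FPKM in control, a difference of 0.50 ± 0.13 (SE, adjusted p = 0.00447). Sox2 measured 3.21, 4.09 and 6.04 FPKM in knockout against 1.74 and 1.90 FPKM in control, a difference of 0.92 ± 0.28 (SE, adjusted p = 0.0155). Both core factors were higher in every knockout library than in either control library. All 4 members passed, 2 higher and 2 lower, where 34.2% of all genes tested passed, 17.0% higher and 17.2% lower. The call of Pou5f1 was lost without control L2C replicate 1 (0.37, adjusted p = 0.105) and with no filter on low values (adjusted p = 0.0523). That of Sox2 was lost without control L2C replicate 1 (adjusted p = 0.0937) or 2 (adjusted p = 0.0639), without knockout L2C replicate 3 (adjusted p = 0.097), with no filter (adjusted p = 0.144), with a pseudocount of 0.1 (adjusted p = 0.272), and with the values scaled to TPM (adjusted p = 0.0641). Zfp42 was not called with a pseudocount of 0.1 (adjusted p = 0.193) or with TPM (adjusted p = 0.0682), while Klf2 was called in all 13 alternatives run. TPM scaling moved the median difference of all genes in L2C from 0.03 to 0.16, and the share of higher genes among those called from 49.8% to 64.3%. The 10 oocyte markers summed to 514 and 487 FPKM in control L2C and to 798, 929 and 840 FPKM in knockout L2C, and 6 of the 9 tested were higher. Their part in these differences was not tested, and fewer cells with a transcript cannot be told apart from less of it per cell.

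At the earlier stages fewer members were called, and each of these calls was of Zfp42. Knockout E2C embryos held 0.788, 0.0989 and 0.307 FPKM of Zfp42 against 2.93, 1.75 and 3.28 FPKM in control, a difference of -1.39 ± 0.23 (SE, adjusted p = 0.000364 from limma). Every knockout library lay below every control library. It was the 1 member of 4 called in E2C, where 13.5% of all genes passed. Pou5f1 measured 142, 122 and 150 FPKM in knockout E2C and Klf2 0.223, 0.309 and 0.487 FPKM, both overlapping control. Sox2 measured 0.578, 0.0246 and 1.14 FPKM in knockout E2C (-0.69 ± 0.30 SE, adjusted p = 0.142 from limma, and 0.0291 without stage weights). In MII eggs Zfp42 measured 0.0737, 0 and 0 FPKM in knockout against 0.27 and 0.46 FPKM in control, a difference of -0.41 ± 0.12 (SE, adjusted p = 0.0182), below the 1 FPKM of the filter. This call was lost without control MII replicate 2 (-0.31, adjusted p = 0.248) and without knockout MII replicate 2 (-0.39, adjusted p = 0.0698), as well as with centring on library medians (adjusted p = 0.0737) and without stage weights (adjusted p = 0.333). The same gene stood at 0.0743, 0.0628 and 0.0439 FPKM in knockout FGO and at 0.0264, 0.0328 and 0 FPKM in knockout L1C, not called at either stage (-0.36, adjusted p = 0.0713, and -0.32, adjusted p = 0.106 from limma). With TPM it was called at both, at -0.87 (adjusted p = 0.015) in FGO and -0.76 (adjusted p = 0.0307) in L1C, as with a pseudocount of 0.1, at -1.52 (adjusted p = 0.00715) and -1.53 (adjusted p = 0.0115). The background was 13.9% of genes in FGO, 16.8% in MII and 17.6% in L1C. In FGO 0 of 4 members were called by limma, with 1 at an unadjusted p under 0.05. There Sox2, Zfp42 and Klf2 stood under 1 FPKM in every library. Sox2 measured 0.0129 to 0.178 FPKM in knockout FGO and 0.174 to 0.32 FPKM in knockout MII. It lay below every control library of the same stage without being called. Pou5f1 in knockout L1C, at 106 to 117 FPKM, also lay below every control library of that stage and was not called. In L1C 0 of 4 were called, with 3 at an unadjusted p under 0.05, which were Klf2 (-0.44 ± 0.16 SE), Sox2 (-0.49 ± 0.17 SE) and Zfp42 (-0.32 ± 0.13 SE). Single libraries and the scale moved these calls. Klf2 was called without control L1C replicate 2 (-0.69) or knockout L1C replicate 1 (-0.53), Sox2 without control L1C replicate 2 (-0.71) or knockout L1C replicate 3 (-0.61), and Zfp42 without control L1C replicate 1 (-0.52). With every library kept, Sox2 was called in L1C with TPM (adjusted p = 0.0369) and with a pseudocount of 0.1 (-1.65, adjusted p = 0.0379).

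Scaling bears on some of these counts. Centring on library medians moved the median knockout difference of all genes in MII from 0.00 to 0.11, and the share of higher genes among those called from 39.2% to 66.3% in MII, from 28.1% to 52.8% in FGO, from 43.1% to 53.3% in L1C and from 46.0% to 60.7% in E2C. TPM moved the last to 62.7%. No member that was called changed its direction under either scaling.

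The knockout effect itself was compared between consecutive stages. Klf2 moved furthest, with an effect -1.94 ± 0.37 (SE) lower in L2C than in E2C (adjusted p = 0.000927 from limma). The effect on Sox2 rose by 1.60 ± 0.41 (SE, adjusted p = 0.00856) and that on Pou5f1 by 0.58 ± 0.19 (SE, adjusted p = 0.0361). These were 3 of 4 members, where 18.9% of all genes passed. From L1C to E2C the effect on Zfp42 fell by 1.07 ± 0.26 (SE, adjusted p = 0.0288), the 1 member called where 3.35% of all genes passed. From E2C to L2C the effect on Zfp42 was not called. From MII to L1C, 0 of 4 members were called by limma, with 1 at an unadjusted p under 0.05 (Klf2, -0.50 ± 0.21 SE), and 0.198% of all genes passed. From FGO to MII, 0 of 4 members and 0% of all genes passed, with 0 members and 1678 genes at an unadjusted p under 0.05. The change in Pou5f1 was lost when any 1 of 7 libraries was left out, namely control E2C replicates 2 and 3, knockout E2C replicates 1 and 2, control L2C replicate 1 and knockout L2C replicates 2 and 3, with values from 0.44 to 0.60 and adjusted p from 0.051 to 0.187. That of Zfp42 was lost when any 1 of 5 was left out, namely control L1C replicate 1, control E2C replicates 1 and 3 and knockout E2C replicates 2 and 3, with values from -1.03 to -0.87 and adjusted p from 0.0607 to 0.104. With a pseudocount of 0.1 the changes in Sox2 (adjusted p = 0.117) and Zfp42 (adjusted p = 0.549) were not called, and with no filter those in Sox2 (adjusted p = 0.0542) and Pou5f1 (adjusted p = 0.126) were not. Zfp42 was also lost with TPM (adjusted p = 0.181) and with only L1C and E2C in the fit (adjusted p = 0.188), and Pou5f1 with eBayes without trend (adjusted p = 0.0635).

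**Figure D2:**
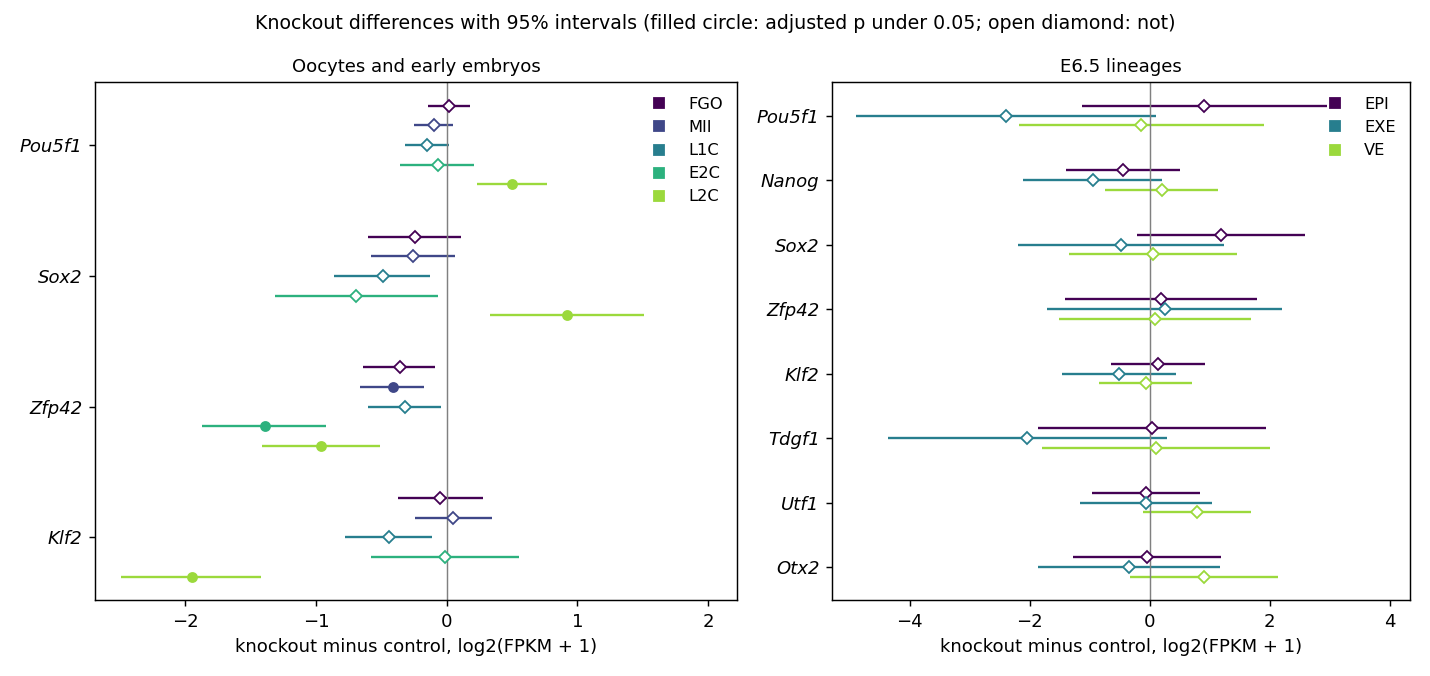
Knockout minus control differences on the log2(FPKM + 1) scale with 95% intervals, for the 4 members tested at the 5 early stages (left) and the 8 members in the 3 E6.5 lineages (right). Filled circles passed an adjusted p of 0.05 and open diamonds did not, and every filled circle lies in MII, E2C or L2C.

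Other genes of the pluripotency network in L2C were followed through lists chosen by function. Of 13 tested genes on a naive list of 16, 2 were higher and 7 lower, with a median difference of -0.63 against 0.03 over all genes. Fgf4, the growth factor that the epiblast signals with, fell by 2.57 ± 0.18 (SE, adjusted p = 2.63e-09 from limma), from 12.4 and 13.9 FPKM in control to between 0.761 and 2.43 FPKM in knockout. Dppa5a, an RNA-binding protein of pluripotent cells, fell by 1.65 ± 0.37 (SE, adjusted p = 0.00173). Of 12 tested genes on a list of 13 expressed across pluripotent states, 2 were higher and 7 lower (median -0.49). Dppa4, a chromatin factor of the early embryo, fell by 1.76 ± 0.32 (SE, adjusted p = 0.000249), and Zfp281, a zinc finger factor of the exit from the naive state, rose by 1.40 ± 0.23 (SE, adjusted p = 8.13e-05). With TPM the second list gave 3 higher and 3 lower, and the naive list 3 higher and 6 lower. Counts of the second list came to 3 with no filter on low values, and to 5 with a pseudocount of 0.1 or with only genes at a mean of 5 FPKM or more. The 12 genes of the formative and primed list gave 3 higher and 1 lower of 5 tested, among them the DNA methyltransferase gene Dnmt3a (1.26 ± 0.38 SE) and the cadherin gene Cdh2 (-0.98 ± 0.19 SE). Without control L2C replicate 2 or knockout L2C replicate 3, 2 of the 5 passed. In the Nodal pathway, in which Tdgf1 acts, 3 of 8 tested were higher and 0 lower, led by the proprotein convertase gene Pcsk6 (0.95 ± 0.24 SE) and the receptor gene Acvr1b (0.91 ± 0.24 SE), a share near the 34.2% of all genes that passed in L2C in either direction. Of 6 tested primitive streak genes 2 were higher and 1 lower, with Fgf8 at 1.88 ± 0.22 (SE) and Sp5 at 0.99 ± 0.20 (SE). The higher oocyte markers were led by Nobox (1.25 ± 0.12 SE) and Gdf9 (1.16 ± 0.30 SE), in the same libraries. Of 6 tested markers of extraembryonic ectoderm 1 was higher and 3 lower, with the trophectoderm factor gene Tead4 at -2.12 ± 0.18 (SE).

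**Figure D3:**
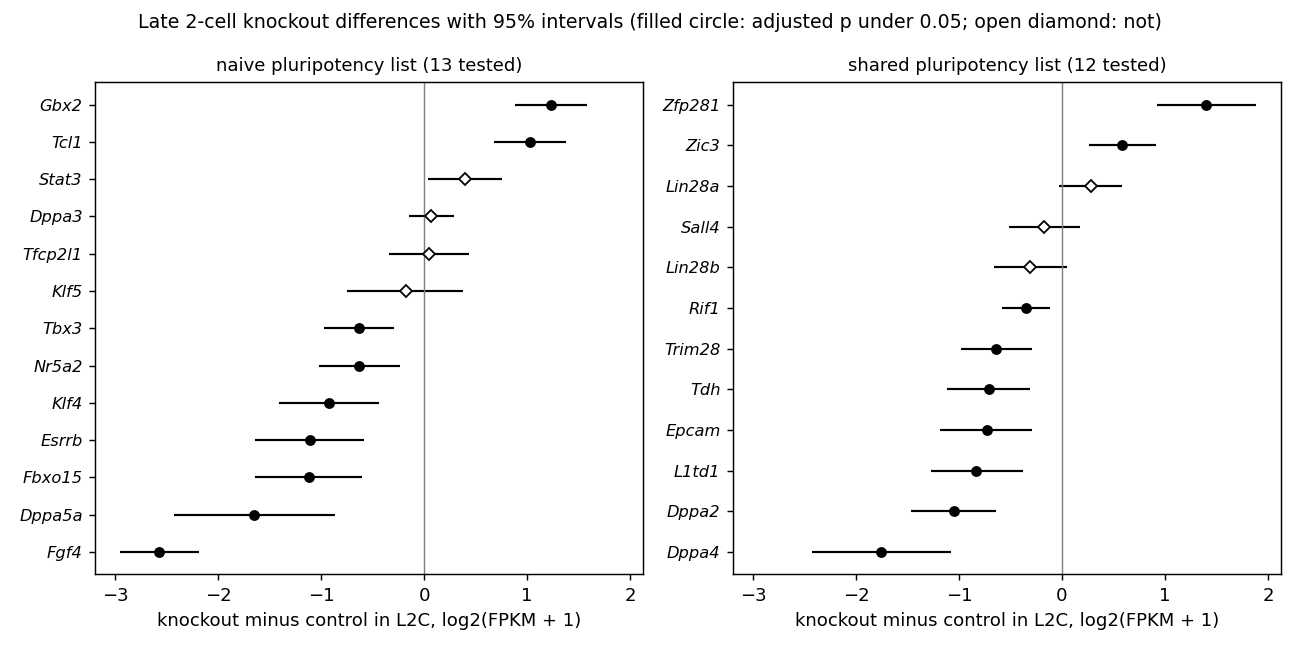
Knockout minus control differences in late 2-cell embryos on the log2(FPKM + 1) scale, with 95% intervals, for the tested genes of the naive list (left) and of the list shared by pluripotent states (right). Filled circles passed an adjusted p of 0.05, and 7 of them lie below 0 and 2 above it in each list.

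In E2C the naive list gave 0 higher and 3 lower of 13 tested, with Fbxo15, an F-box gene of pluripotent cells, at -2.57 ± 0.26 (SE, adjusted p = 2.75e-06 from limma). The shared list gave 1 higher and 4 lower of 12, with Dppa4 at -1.93 ± 0.34 (SE, adjusted p = 0.000686) and L1td1 at -1.08 ± 0.22 (SE, adjusted p = 0.00257). Of all genes tested, 13.5% passed in E2C. Median differences were -0.09 and -0.18, against 0.00 over all genes.

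Several of these list genes already differed in oocytes, but the shares called in FGO lay near the 13.9% of all genes. The naive list gave 0 higher and 2 lower of 13 tested there, and the shared list 0 higher and 2 lower of 12. The formative list gave 0 higher and 1 lower of 5, and the Nodal and streak lists 1 higher each, of 8 and 6. Dppa4 was lower at all 5 early stages, with FGO at -1.62 ± 0.20 (SE, adjusted p = 4.25e-06 from limma), MII at -1.53 ± 0.17 and L1C at -1.37 ± 0.20 (SE). Fbxo15 was also lower at all 5, with an adjusted p of 6.25e-05 from limma in FGO and differences of -0.98 ± 0.13 (SE) in MII, -1.53 ± 0.15 in L1C and -1.12 ± 0.25 in L2C. Cdh2 was lower in FGO (adjusted p = 2.14e-10) and differed by -2.15 ± 0.10 (SE) in MII, -2.33 ± 0.12 in L1C and -2.12 ± 0.20 in E2C, so that its difference in L2C was the smallest of the 5. Pcsk6 was higher in FGO (0.54 ± 0.14 SE), MII (0.99 ± 0.13 SE) and L1C (1.06 ± 0.15 SE) as well as in L2C. Dppa5a, lower in L2C, was higher in L1C (0.73 ± 0.23 SE, adjusted p = 0.032). Fgf4, Zfp281 and Tead4 were called by limma in L2C and at none of the 4 earlier stages, with differences there between -0.39 and 0.02.

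At E6.5, 11 poly(A) libraries were made with another kit than the total RNA libraries of the early stages and were scaled apart from them, so that levels are given side by side and not tested across the tables. All 8 members were tested there. Pou5f1 measured 427 and 274 FPKM in control and 694 and 595 FPKM in knockout EPI. In EXE it measured 20.5 FPKM in the control library and 0.127 and 13.8 FPKM in the knockout libraries, and in VE 0.213 and 0 FPKM in control and 0 in both knockout libraries. It stood 8.81 ± 0.64 (SE, adjusted p = 7.86e-06 from limma) higher in EPI than in VE and 5.65 ± 0.72 (SE, adjusted p = 0.00051) higher than in EXE, averaged over genotypes. Tdgf1, the co-receptor gene, followed the same order with 112 and 146 FPKM in control and 88.7 and 194 FPKM in knockout EPI. It measured 15.4 FPKM in control EXE, 0.284 and 11.4 FPKM in knockout EXE, and at most 0.165 FPKM in VE. The differences were 6.92 ± 0.60 (SE, adjusted p = 2.19e-05) against VE and 4.01 ± 0.67 (SE, adjusted p = 0.00244) against EXE. Otx2, the homeobox gene of the post-implantation epiblast and of the anterior visceral endoderm, measured 73.5 and 73.0 FPKM in control and 56.1 and 89.8 FPKM in knockout EPI. It measured 4.85 and 1.29 FPKM in control VE, 7.19 and 4.72 FPKM in knockout VE, and 1.04, 0.0233 and 1.53 FPKM in EXE. Otx2 was 3.87 ± 0.39 (SE, adjusted p = 5.55e-05) above VE and 5.33 ± 0.44 (SE, adjusted p = 4.5e-05) above EXE. Nanog measured 10.2 and 17.8 FPKM in control and 11.8 and 7.96 FPKM in knockout EPI, between 0.267 and 2.36 FPKM in EXE and between 0.0905 and 0.44 FPKM in VE. Its differences were 3.23 ± 0.30 (SE, adjusted p = 3.17e-05) and 2.37 ± 0.33 (SE, adjusted p = 0.000897).

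Utf1 and Sox2 were shared by EPI and EXE. Utf1 measured 621, 531, 469 and 649 FPKM in EPI, 457, 394 and 482 FPKM in EXE and 89.6, 39.0, 120 and 87.8 FPKM in VE, control libraries first. Sox2 measured 8.37 and 2.91 FPKM in control and 23.1 and 6.89 FPKM in knockout EPI, 12.3 FPKM in control and 13.3 and 5.30 FPKM in knockout EXE, and at most 0.192 FPKM in VE. Neither was called between EPI and EXE. Both were higher in EPI than in VE, Utf1 by 2.84 ± 0.28 (SE, adjusted p = 5.35e-05 from limma) and Sox2 by 3.09 ± 0.44 (SE, adjusted p = 0.000474). Both were also higher in EXE than in VE, by 2.50 ± 0.32 and 3.39 ± 0.49 (SE).

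Zfp42 and Klf2 peaked in EXE, not in EPI. Zfp42 measured 106 FPKM in control and 107 and 150 FPKM in knockout EXE, against 1.59, 1.90, 0.644 and 4.86 FPKM in EPI and 9.86, 7.18, 19.6 and 3.82 FPKM in VE. It was thus -5.33 ± 0.56 (SE, adjusted p = 0.000174 from limma) lower in EPI than in EXE. Its difference of EPI from VE, -1.73 ± 0.50 (SE, adjusted p = 0.0221), rests on overlapping libraries. It was lost when knockout EPI replicate 1, control EPI replicate 1, knockout VE replicate 1 or control VE replicate 1 or 2 was left out, with values from -1.83 to -1.21 and adjusted p from 0.0505 to 0.0763, and with no filter on low values (adjusted p = 0.125). Klf2 measured 4.51 FPKM in control and 4.19 and 1.86 FPKM in knockout EXE, at most 0.252 FPKM in EPI and at most 0.609 FPKM in VE. It was -2.04 ± 0.27 (SE, adjusted p = 0.000692) lower in EPI than in EXE and not called between EPI and VE. EXE also stood above VE, by 3.60 ± 0.56 (SE, adjusted p = 0.00135) for Zfp42 and by 1.89 ± 0.27 (SE, adjusted p = 0.000841) for Klf2.

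Of the 8 members, 6 were higher and 1 lower in EPI than in VE, where 38.4% of the 13914 genes tested passed. Against EXE 4 were higher and 2 lower, where 19.6% passed. The comparison of EXE with VE was added after the values were seen, and there 6 members were higher and 1, Otx2, lower (-1.47 ± 0.44 SE), where 22.6% passed. The lone control EXE library enters these tests on the assumption that it varies like the libraries of the other groups. The median difference of EPI from VE over all genes was 0.20 and moved to 0.25 with TPM and to 0.11 with centring on library medians. Otx2 between EXE and VE was not called by limma without knockout EXE replicate 1 (adjusted p = 0.121), without knockout VE replicate 1 (adjusted p = 0.114) or 2 (adjusted p = 0.066), or without control VE replicate 1 (adjusted p = 0.105), nor with a pseudocount of 0.1 (adjusted p = 0.0567). With no filter on low values, Otx2 (adjusted p = 0.129), Pou5f1 and Tdgf1 (adjusted p = 0.0733 each) were not called between EXE and VE.

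**Figure D4:**
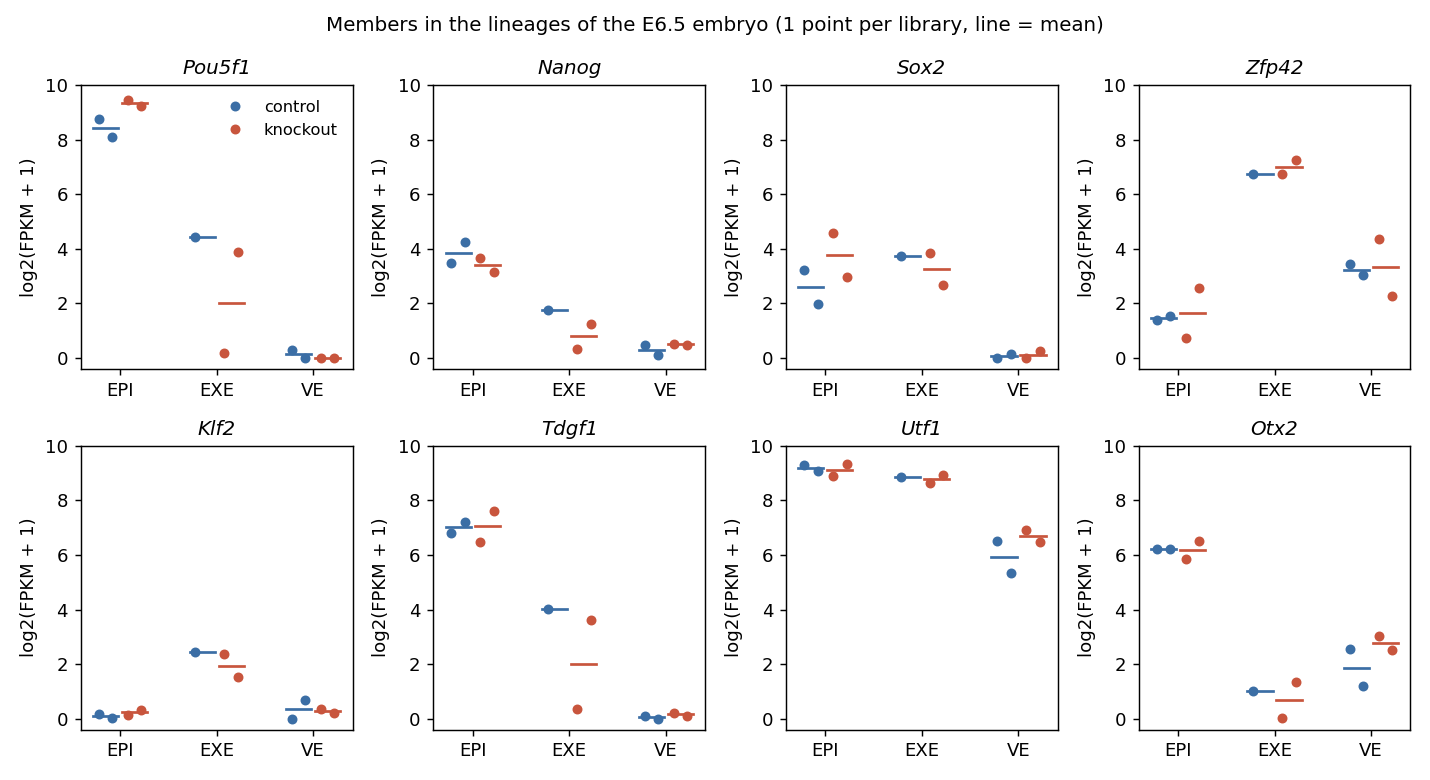
log2(FPKM + 1) of the 8 members in epiblast (EPI), extraembryonic ectoderm (EXE) and visceral endoderm (VE) at E6.5, with 1 point per library and a line at the mean of each genotype. Pou5f1, Nanog, Tdgf1 and Otx2 are highest in EPI, Zfp42 and Klf2 in EXE, and Utf1 and Sox2 overlap between EPI and EXE.

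In EXE, 4 members highest in EPI were scarcest in the first knockout library. Set against the mean of the 4 EPI libraries, Pou5f1 reached 4.12% in the control EXE library, 0.0255% in knockout replicate 1 and 2.77% in knockout replicate 2. Tdgf1 reached 11.4%, 0.21% and 8.43%, Otx2 1.42%, 0.0319% and 2.1%, and Nanog 19.7%, 2.23% and 11.7% in the same order. The formative factors Fgf5 (2.02%, 0% and 2.91%) and Sox11 (5.02%, 0% and 1.93%) were also lowest in knockout replicate 1, while Dnmt3b (22.4%, 18.1% and 14.6%) and Sall2 (2.82%, 1.77% and 1.2%) were not. The summed formative and primed list differed little, at 225, 184 and 184 FPKM, with 0, 3 and 0 of its 12 genes at 0, and it includes Pou3f1, which EXE held at 78.1% to 86.8% of the EPI mean. The part of such transcripts in the EXE values of the members was not tested.

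The wider lists at E6.5 are set beside all genes tested, of which 38.4% passed in EPI against VE and 19.6% in EPI against EXE. Against VE, the shares called of the naive and Nodal lists lay nearer to that background than the share of the formative list. The formative and primed list gave 11 higher and 1 lower of 12 in EPI against VE, with the amino acid transporter gene Slc7a3 at 6.86 ± 0.32 (SE) and the POU factor gene Pou3f1 at 6.17 ± 0.28 (SE). Against EXE it gave 8 higher and 0 lower, with the growth factor gene Fgf15 at 5.39 ± 0.32 (SE). The naive list gave 1 higher and 5 lower of 13 against VE and 4 higher and 7 lower against EXE, with the nuclear receptor gene Esrrb at -4.48 ± 0.27 (SE) and Klf5 at -4.30 ± 0.29 (SE). Esrrb also stands on the list of EXE markers. The shared list gave 8 higher and 2 lower of 13 against VE, and 5 higher and 1 lower against EXE. Without knockout EXE replicate 2 the latter came to 3 higher and 0 lower. The Nodal pathway gave 6 higher and 1 lower of 14 against VE and 5 higher and 2 lower against EXE. The ligand gene Gdf1 was 4.47 ± 0.69 (SE) higher, and Cfc1, a co-receptor related to Tdgf1, -4.39 ± 0.25 (SE) lower, in EPI than in VE. The medians against VE were 3.31 for the formative, 0.07 for the naive, 1.35 for the shared and 0.69 for the Nodal list, beside 0.20 for all genes. Against EXE they were 2.95, -1.04, 0.51 and 0.32, beside 0.03 for all genes. Primitive streak genes gave 0 higher and 5 lower of 9 against VE, with Lhx1 at -3.09 ± 0.20 (SE). Against EXE they gave 1 higher and 1 lower, a share near the 19.6% of all genes.

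No member was called between maternal knockout and control embryos in any E6.5 lineage. In EPI, 0 of 8 members and 0% of all genes passed in limma, with 0 members and 469 genes at an unadjusted p under 0.05. Pou5f1 measured more in either knockout than in either control EPI library, a difference of 0.91 ± 0.91 (SE), with a 95% interval from -1.13 to 2.95 and an adjusted p of 1. The fit shares its estimate of spread over all lineages. The width of this interval thus also reflects the knockout EXE libraries, at 0.127 and 13.8 FPKM of Pou5f1, and not the EPI libraries alone. Sox2 differed by 1.19 ± 0.62 (SE), with an interval from -0.21 to 2.58, and Nanog by -0.44 ± 0.42 (SE), with an interval from -1.39 to 0.51. Differences of Tdgf1, Utf1, Otx2, Zfp42 and Klf2 in EPI lay between -0.06 and 0.18. The intervals are wide, and differences of the size seen in L2C for Sox2 and Pou5f1 lie within them. That of Zfp42 (-0.96) also lies within its EPI interval, from -1.42 to 1.78. That of Klf2 (-1.95) lies outside its EPI interval, from -0.64 to 0.92. Klf2 measured at most 0.252 FPKM in EPI, so a fall of that size could not be seen there. In VE, 0 of 8 members and 0.00719% of all genes (1 gene) passed, with 0 members and 248 genes at an unadjusted p under 0.05. In EXE, 0 of 8 members and 0% of all genes passed, with 0 members and 251 genes at an unadjusted p under 0.05. Pou5f1 differed by -2.40 ± 1.11 (SE) and Tdgf1 by -2.04 ± 1.04 (SE) in EXE, and without knockout EXE replicate 1 these were -0.54 and -0.41. The knockout effect was not called as different between lineages for any member. Between EPI and VE 0 members and 0.00719% of all genes passed, with 0 members and 255 genes at an unadjusted p under 0.05. Between EPI and EXE 0 members and 0% of all genes passed, with 1 member (Pou5f1, 3.30 ± 1.44 SE) and 306 genes at an unadjusted p under 0.05. No gene of the naive, shared, formative, Nodal or streak lists was called in EPI.

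Across the 11 E6.5 libraries the genes most like Pou5f1, by Pearson correlation of log2(FPKM + 1), were Tdgf1 (r = 0.990), Mid1ip1 (r = 0.986) and Gng3 (r = 0.985). Tdgf1 is itself a member, and its own nearest genes after Pou5f1 were Clip3 (r = 0.986) and Atxn7l2 (r = 0.984). Nanog was most like Gng3 (r = 0.985), Mfap2 (r = 0.978) and Ccnd1 (r = 0.977), and Otx2 most like Limd2 (r = 0.985), Ccnjl (r = 0.983) and Efna5 (r = 0.981). Sox2 and Utf1 had other neighbours, Aspg (r = 0.984), Fgfr1 (r = 0.983) and N4bp3 (r = 0.982) for Sox2 and Marcksl1 (r = 0.990), Fam53a (r = 0.981) and Crip2 (r = 0.979) for Utf1. Zfp42 was most like Cd9 (r = 0.985), Cpm (r = 0.980) and Mpzl2 (r = 0.975). All these points share the same 3 lineages, and no p is given. Over the 26 early libraries, which share 5 stages, Zfp42 was most like Slc19a3 (r = 0.989), Fcgr3 (r = 0.985) and Trim43a (r = 0.984). Klf2 was most like Dhx37 (r = 0.932), Ccdc25 (r = 0.909) and Stat2 (r = 0.907), and Pou5f1 most like Ppp3r1 (r = 0.944), Arf1 (r = 0.935) and Lef1 (r = 0.935).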

How the data were processed

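The deposited values were FPKM from the authors, 1 column per library, in 1 table of 26 total RNA libraries and 1 of 11 poly(A) libraries, with 0 columns left unmatched. In the control epiblast replicate 1 column the authors' table lists Gm24888 at -1e-06, which was set to 0. Trim Galore 0.6.6, STAR 2.7.9, StringTie 2.1.7 and mm10 are named per the submitters' processing notes, without their roles. The annotation used for counting is not given in the sources used here.

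Groups came from the sample titles. A gene entered a fit if 2 or more of its libraries held 1 FPKM or more. The fits, by limma 3.58.1 in R 4.3.3 (eBayes with trend), used log2(FPKM + 1), on which changes of low genes are understated, with Benjamini-Hochberg adjustment over all genes and a threshold of 0.05. The 26 early libraries were fitted together with weights estimated by stage (0.422 in E2C to 1.98 in MII), and the 11 E6.5 libraries together without weights. Tables and plots used Python 3.11.15, pandas 2.3.3 and matplotlib 3.10.9. Scripts were tested on simulated data. Low values multiplied by exonic length were whole, within 0.02, for at most 15% of values, so reads could not be recovered.

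The members and lists were chosen with earlier results of these data known. Named beside the members were the 2 genes of a list with the largest difference past the threshold, and the 3 genes most correlated with a member, leaving out predicted and clone-named models. Exceptions chosen after their values were seen are Fgf5, Sox11, Pou3f1, Dnmt3b and Sall2 in EXE, and Foxd3 and Fgf4 in EPI. The comparison of EXE with VE was also chosen after seeing the data. Alternatives were TPM scaling, centring on library medians, a pseudocount of 0.1, a filter at a mean of 5 FPKM or none at all, eBayes without trend, no weights, a replicate block, fits of only the stages or lineages compared, and leaving out each library.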

Additional observations from a re-analysis of the deposited data

Results flagged for a closer look

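The knockout effect on 4 members differed between consecutive early stages by an interaction term in limma, all on the log2(FPKM + 1) scale. From E2C to L2C the effect changed by -1.94 for Klf2, by 1.60 for Sox2 and by 0.58 for Pou5f1. From L1C to E2C the effect changed by -1.07 for Zfp42. Their causes were not tested. No group has 4 libraries or more, so single libraries were not tested for standing apart from their group.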

How the results depend on the processing

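Of 1618 values of members under the alternatives, 1540 kept their side of the threshold, 58 lost a call and 20 gained one. None that was called changed sign, and 89 uncalled values did.

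With a pseudocount of 0.1 the number of members called was 1 in FGO, 2 in L1C, 2 in L2C, 1 from MII to L1C and 0 for the effect in E2C against L1C. Without a filter on low values it was 2 in L2C, 1 for the effect in L2C against E2C and 4 in EXE against VE. With a mean of at least 5 FPKM, where Pou5f1 alone of the members stayed tested at the early stages, it was 0 in MII, 0 in E2C, 1 in L2C, 1 from MII to L1C, 0 from L1C to E2C, 1 from E2C to L2C, 0 for the effect in E2C against L1C and 1 for that in L2C against E2C. With TPM it was 1 in FGO, 2 in L1C, 2 in L2C and 0 for the effect in E2C against L1C. With centring on medians it was 0 in MII and 4 from L1C to E2C. Without weights it was 0 in MII, 2 in E2C and 0 from MII to L1C. With only the stages compared it was 0 in MII, 1 from MII to L1C and 0 for the effect in E2C against L1C. With only MII in the fit, Zfp42 did not reach the filter of 1 FPKM in 2 libraries and was not tested. Except for this and for the filter at 5 FPKM, the cause was not tested.

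Leaving out single libraries gave 0 to 1 member in MII, 0 to 2 in L1C, 2 to 4 in L2C, 0 to 1 from FGO to MII, 1 to 2 from MII to L1C and 0 to 1 for the effect in E2C against L1C.

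Replicate numbers come from the titles, which do not say that they pair libraries. Deviations of same-numbered libraries correlated by -0.08 to 0.09 between genotypes at the early stages, by 0.59 in EPI and by 0.42 in VE, with 2 pairs there. Between lineages they correlated by -0.38 to 0.51. The replicate block raised the genes at an unadjusted p under 0.05 in limma from 469 to 1300 for the knockout contrast in EPI. In VE it raised them from 248 to 655, and with the block 1 gene passed the adjusted threshold in each. With the replicate block, 0 members were called in MII, 0 for the effect in E2C against L1C, 3 in L2C, 2 for the effect in L2C against E2C, 1 in EXE and 1 for the effect in EPI against EXE. The calls lost were Zfp42 in MII (-0.39, adjusted p = 0.0616 from limma) and for E2C against L1C (-1.08, adjusted p = 0.116), and Sox2 in L2C (0.71, adjusted p = 0.159) and for L2C against E2C (1.40, adjusted p = 0.0783). A block across lineages lost Zfp42 in EPI against VE (-1.73, adjusted p = 0.0518). The calls gained in EXE and in EPI against EXE were Pou5f1, at -4.25 (adjusted p = 0.0466 from limma) and 5.16 (adjusted p = 0.0349), where the block leaves control and knockout EXE replicate 1 as the only EXE pair.

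Over all genes, the knockout contrast in EPI gave 0 to 35 calls and that in EXE 0 to 1426, the highest numbers without a filter on low values. TPM moved the median change of all genes from L1C to E2C from -0.08 to -0.27, and centring moved it from MII to L1C from -0.01 to 0.16 and from E2C to L2C from 0.02 to -0.23.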

Other observations

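Genes of the wider lists in EPI included Foxd3, a forkhead factor of pluripotent cells, and Fgf4. Foxd3 was listed at 0 FPKM in both control EPI libraries and measured 25.6 and 8.16 FPKM in the knockout ones, with an adjusted p of 0.0576 from limma. Fgf4 measured 3.83 and 6.59 FPKM in control EPI and 17.5 and 34.0 FPKM in knockout EPI (2.07 ± 0.38 SE, adjusted p = 0.617). Both were chosen after their values were seen. Fgf4 was lower in knockout L2C embryos, in a table that was scaled separately.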
